A study of Capra hircus with 12 samples.

Results

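miR-21 was followed over the annual hair cycle of the cashmere goat through its 2 mature arms, miR-21-5p and miR-21-3p (listed as chi-miR-21-5p and chi-miR-21-3p), the members with that name among 376 listed miRNAs. They were matched by name. miR-21 itself was picked as an abundant miRNA with a wide spread between libraries, so neither trait is a finding here. The 12 small RNA libraries came from secondary hair follicles (SHFs), the small follicles that grow cashmere, dissected from scapular skin of Liaoning cashmere goats aged 1.5 years. Female and male goats gave 1 library each in 6 months, with February and March representing telogen (rest, 4 libraries), May early anagen and September mid-anagen (growth, 2 libraries each), and November and December catagen (regression, 4 libraries). The female and male libraries of a month served as its replicates, and how goats were combined into a library is not stated in the sources used here, so the p-values measure the spread between these libraries. SHFs are bulk tissue, in which fewer cells of a type and less miRNA per cell cannot be told apart.

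miR-21 is made from a hairpin whose 5′ arm is the usual guide strand loaded into the silencing complex, while the 3′ arm is mostly discarded as the passenger strand. The guide strand is known to repress inhibitors of growth and survival signalling, such as PDCD4 and the Sprouty proteins, and it rises in wounded and proliferating epithelium and in activated fibroblasts. In skin it is known as a target of the BMP pathway, which represses miR-21 in keratinocytes and is itself a regulator of the resting phase of the follicle, and SMAD proteins can also act on the processing of its precursor. Its gene MIR21 has VMP1, a gene of autophagy, and TUBD1 as its nearest protein-coding neighbours in the goat RefSeq annotation of ARS1.2. Sequences of the arms were not used here.

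miR-21-5p was one of the most abundant miRNAs of the SHFs, with a TPM of 59581 ± 19357 (SD, n = 12 libraries). In telogen its TPM was 67111 in the female and 58855 in the male library of February, and 95217 in the female and 79372 in the male library of March. It was 78498 and 72359 in the female and male libraries of May and 45658 and 61110 in those of September. In catagen the female and male libraries stood at 36891 and 39694 in November and at 42961 and 37247 in December. The 4 catagen libraries were thus the lowest of all 12, and the female March library was the highest. Every library of telogen and May lay above every library of catagen, and the September libraries lay between the groups, overlapping with telogen. The share of all miRNAs without overlap on the TPM scale was not computed. With library totals, the median tested miRNA was also above catagen, by a log2 fold change of 0.35 in telogen and 0.47 in May.

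These levels moved miR-21-5p from rank 2 of all miRNAs in the female March library to rank 8 in the female November and male December libraries. Its share of the counts was 9.52% in the female March library (95% Wilson interval 9.50% to 9.55%) and 3.69% in the female November library (3.67% to 3.71%). The intervals cover counting error only, as the reads carry no molecular identifiers, and are far narrower than the distance between libraries of the same month. The libraries held 3135292 to 5788032 counts on miRNAs.

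**Figure D1:**
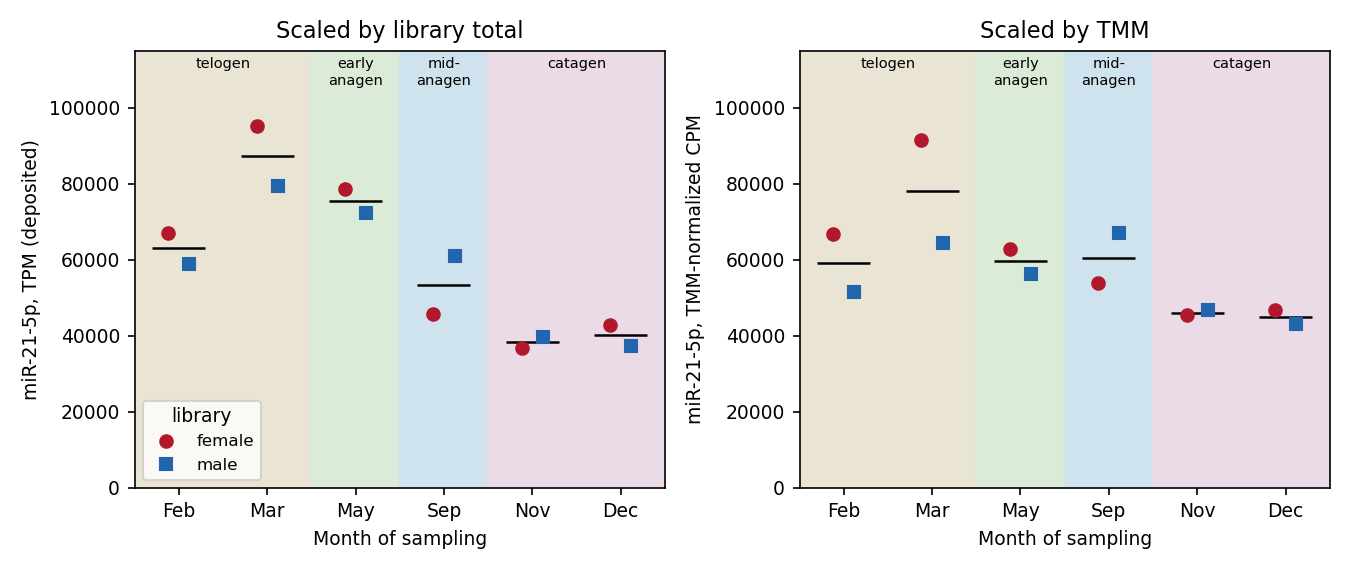
Level of miR-21-5p by month of sampling (x axis), as deposited TPM (left, scaled by the library total) and as TMM-normalized CPM (right), with circles for female libraries, squares for male libraries and a line at the mean of each month. The catagen libraries are the lowest under both scalings, and the May mean falls from 75429 TPM to 59553 after TMM normalization.

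TPM is a share of the library and falls when other miRNAs rise, so the libraries were also scaled by TMM, which sets the bulk of miRNAs equal. The TMM factors ran from 0.813 in the female November library to 1.29 in the male May library. After TMM normalization miR-21-5p had a CPM of 68528 ± 16747 in the telogen group and of 45550 ± 1794 in the catagen group (SD, n = 4 libraries each). May stood at 59553 ± 4686 and September at 60421 ± 9297 (SD, n = 2 libraries each). The catagen libraries still lay below all others, at 43074 to 46879, against 51423 to 91524 in telogen. May no longer stood above September.

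miR-21-5p was higher in telogen than in catagen. Of the 6 comparisons between the groups this was the one that passed the test after TMM normalization (adjusted p under 0.05). The level of miR-21-5p was 1.50-fold higher in telogen after TMM normalization (log2 fold change 0.59, SE 0.15, FDR-adjusted p = 0.00975, edgeR's quasi-likelihood test over 300 miRNAs). The change stayed under the 2-fold limit that the study set for a differentially expressed miRNA. In this comparison 35% of the tested miRNAs had an adjusted p under 0.05 and 14% did so with a higher level in telogen, and miR-21-5p was at place 59 by p and 118 by size of change. Its telogen and catagen libraries did not overlap after TMM normalization, which was so for 30% of the tested miRNAs in either direction and for 11% with the higher level in telogen. With scaling by library totals the log2 fold change was 0.94 (FDR-adjusted p = 0.00112), while the median of all tested miRNAs moved from 0.00 to 0.35. Relative to that median it was 0.58. An exact two-sided permutation test of the 4 telogen against the 4 catagen libraries on log2 TPM gave p = 0.0286, the smallest that this design allows. Without the female March library the log2 fold change was 0.45 (FDR-adjusted p = 0.0184).

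May did not differ from telogen beyond the spread of the libraries (log2 fold change of May over telogen -0.20, SE 0.19, FDR-adjusted p = 0.502, same test), where 5.33% of the tested miRNAs passed, and the sign turned with library totals, at 0.01. May over catagen was 0.39 (SE 0.18, FDR-adjusted p = 0.104), which did not pass the test after TMM normalization, as 37% of the tested miRNAs did, but passed with library totals, at 0.94 (FDR-adjusted p = 0.00116). It also passed without the female March library (0.47, FDR-adjusted p = 0.0188) and without the male March library (0.50, FDR-adjusted p = 0.0284). These were the only 2 of the 12 fits without 1 library in which May over catagen passed. Both left out a telogen library, which is in neither of the groups compared and enters only through the shared fit. The May libraries did not overlap with those of catagen under either scaling, but the share of all tested miRNAs for which this was so was not computed.

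Between the 2 anagen months, where many other miRNAs of the SHFs changed, the level of miR-21-5p after TMM normalization was nearly equal. The log2 fold change of May over September was -0.02 (SE 0.21, FDR-adjusted p = 0.939), while 34% of the tested miRNAs passed the test there. With library totals it was 0.50 (FDR-adjusted p = 0.071), close to the median of all tested miRNAs of 0.46. Telogen over September was 0.18 (SE 0.18, FDR-adjusted p = 0.483), where 25.3% passed. September over catagen was 0.41 (SE 0.18, FDR-adjusted p = 0.619, edgeR). All September libraries lay above all catagen libraries, but the share of all tested miRNAs for which this was so was not computed. In that comparison 0% of the tested miRNAs passed by edgeR, 23 had an unadjusted p under 0.05, and DESeq2 called 3.

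**Figure D2:**
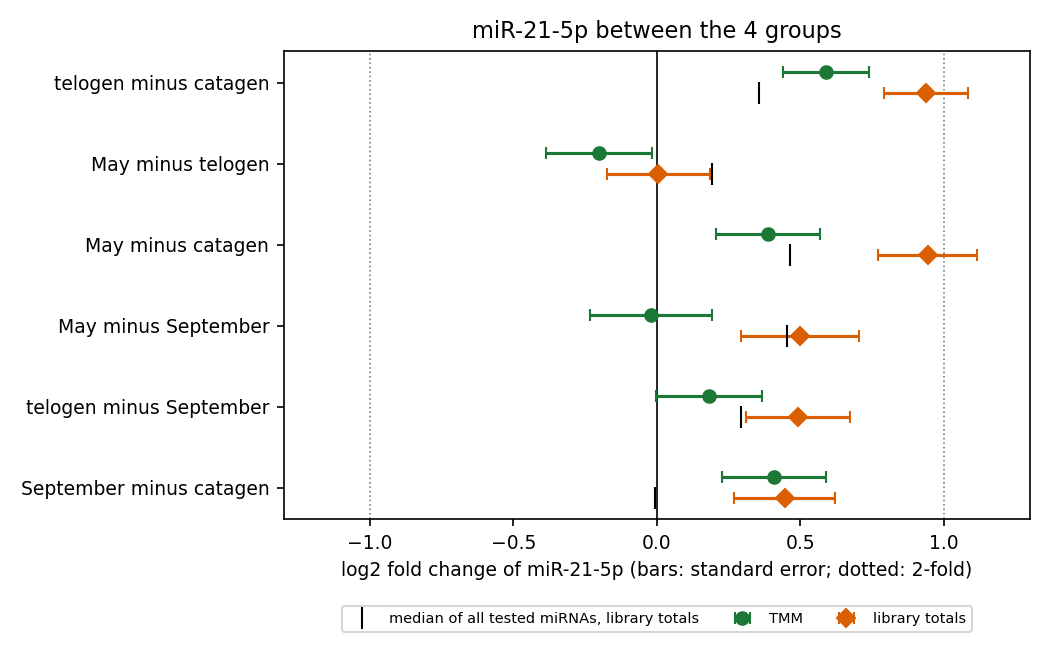
Log2 fold change of miR-21-5p (x axis) in the 6 comparisons of the 4 groups, with its SE as bars, after TMM normalization (circles) and with library totals (diamonds); black ticks are the median of all 300 tested miRNAs with library totals. The difference of telogen over catagen is 0.59 with TMM and 0.94 with library totals, and no value reaches the dotted 2-fold lines.

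By month, the TMM-normalized CPM ran from 77975 ± 19162 in March over 60421 ± 9297 in September, 59553 ± 4686 in May, 59082 ± 10831 in February and 46124 ± 1051 in November to 44977 ± 2690 in December (SD, n = 2 each). In a fit with 6 month groups, no neighbours in this order differed with an adjusted p under 0.05. March was above November by a log2 fold change of 0.76 (SE 0.20, FDR-adjusted p = 0.0197, edgeR's quasi-likelihood test), where 27.3% of the tested miRNAs passed, and above December by 0.79 (SE 0.20, FDR-adjusted p = 0.0424), where 9% passed. The other 13 pairs of months did not pass. The value of March over February was 0.40 (SE 0.20, FDR-adjusted p = 0.987, edgeR). By TPM the order was March, May, February, September, December and November.

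The difference of telogen from catagen can also be given without any scaling, as ratios of miR-21-5p to other miRNAs of the same library. These ratios use the same counts and are no separate support. For each read of miR-26a-5p, the most abundant miRNA, there were 0.350, 0.363, 0.490 and 0.587 reads of miR-21-5p in the telogen libraries and 0.191, 0.201, 0.202 and 0.255 in the catagen libraries. For each read of let-7g-5p, a member of the let-7 family tied to differentiation, there were 1.45 to 2.498 reads in telogen and 0.842 to 1.12 in catagen. Relative to miR-103-3p the ratio was 11.4 to 20.98 in telogen and 5.98 to 7.03 in catagen. The telogen libraries were above the catagen libraries in all 3 ratios. The ratios hold the change of the denominators too, which were themselves lower in telogen after TMM normalization, miR-26a-5p by a log2 fold change of -0.46 (FDR-adjusted p = 0.0411, edgeR), let-7g-5p by -0.44 (FDR-adjusted p = 0.00327) and miR-103-3p by -0.60 (FDR-adjusted p = 0.00079).

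Over the 24 other miRNAs with a mean TPM above 5000, the mean log2 ratio was higher in telogen for all 24, by a median of 0.91, and the groups did not overlap for 17. The differences ran from 1.41 against miR-146b-5p down to 0.01 against miR-199a-3p, a miRNA of the dermis. miR-199a-3p was higher in telogen than in catagen like miR-21-5p, with a log2 fold change of telogen over catagen of 0.55 (SE 0.14, FDR-adjusted p = 0.00873, edgeR). For each read of miR-199a-3p there were 3.23 and 2.88 reads of miR-21-5p in the May libraries, 5.18 and 5.98 in the September libraries, 3.44 to 5.41 in telogen and 3.49 to 4.83 in catagen. Against all 299 other tested miRNAs the ratio was higher in telogen for 244 and lower for 55, by a median of 0.59, without overlap for 43.1% in the first direction and 0% in the second. All ratios share the counts of miR-21-5p and are not independent of each other. Their median over all tested miRNAs restates the TMM result, a log2 fold change of 0.59, as TMM sets the bulk of miRNAs equal.

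**Figure D3:**
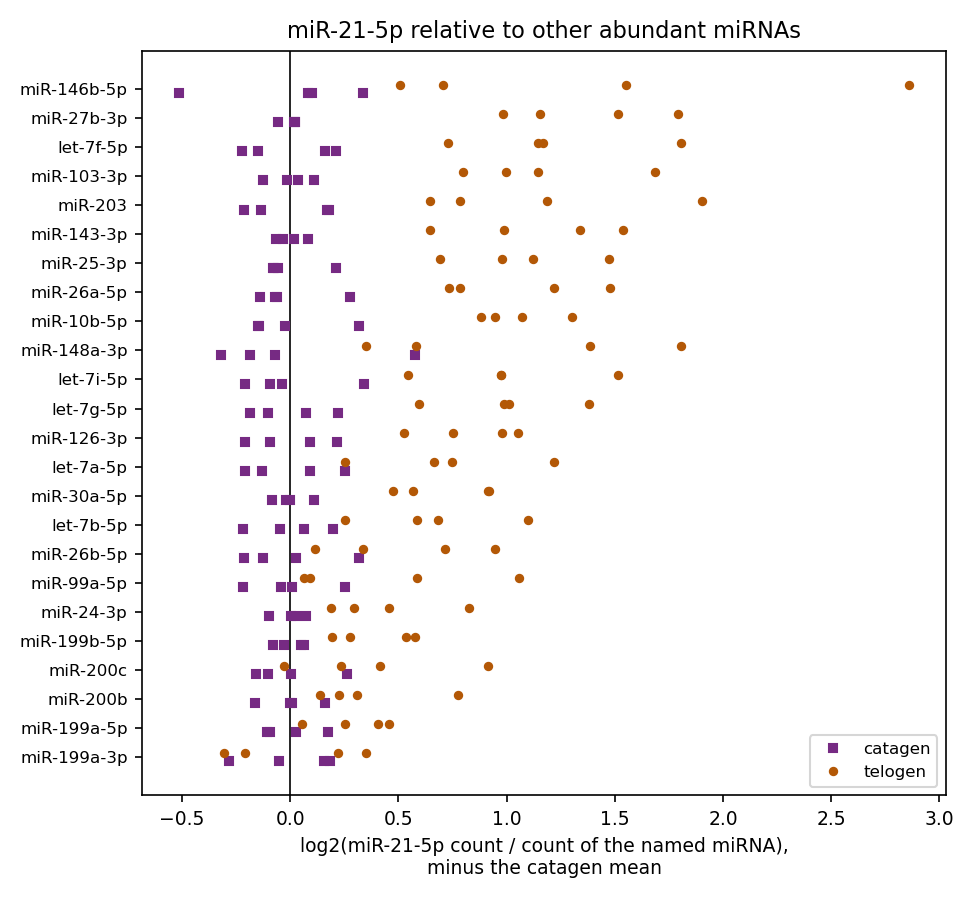
Log2 ratio of the miR-21-5p count to the count of each of 24 other abundant miRNAs (rows), set to a catagen mean of 0, with circles for the 4 telogen libraries and squares for the 4 catagen libraries. Telogen lies to the right of catagen in all rows on average and without overlap in 17; the row of miR-199a-3p, at 0.01, is mixed.

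Of all 376 miRNAs, miR-21-5p had the largest difference of mean TPM between telogen and catagen, from 75139 ± 15818 to 39198 ± 2801 (SD, n = 4 each). Its difference of 35940 TPM made up 35.8% of the summed differences of the 252 miRNAs with a higher mean TPM in telogen. A difference of TPM weighs abundant miRNAs most. By size of log2 fold change after TMM normalization miR-21-5p was at place 118 of 300 tested miRNAs. Among the 25 abundant miRNAs the next largest difference was that of miR-27b-3p, at -26351 TPM for telogen minus catagen. The spread of miR-21-5p between libraries was among the reasons for its choice. On the TPM scale its coefficient of variation was 32.5% over the 12 libraries, at place 5 among 25 abundant miRNAs whose median was 17.7%. After TMM normalization its SD of log2 CPM was 0.31, at place 14 among the same 25, whose median was 0.32, and below the median of 0.43 over all 300 tested miRNAs, which include rare ones. Within a month, the SD of its 2 libraries was 0.21 on the same scale, at place 10 among the 25 abundant miRNAs with a median of 0.13, while the median over all tested miRNAs was 0.30.

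Female and male libraries did not differ in miR-21-5p in a fit with month as a term (log2 fold change of female over male 0.13, SE 0.11, FDR-adjusted p = 0.701, edgeR's quasi-likelihood test). The exact paired permutation test over the 6 months gave p = 0.719 on log2 TPM. The female library was higher in February, March, May and December and the male library in September and November. After TMM normalization, the telogen libraries were above the catagen libraries by 0.76 on the log2 scale in the female libraries and by 0.36 in the male libraries. The difference between these values was 0.41 in the fit (SE 0.26, FDR-adjusted p = 0.415), and it was 0.18 with library totals.

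To find the miRNAs whose profile over the 12 libraries was most like that of miR-21-5p, log2 TMM CPM was centred on its mean and the root mean square distance was taken for 120 tested miRNAs with a mean TPM of at least 100. The 5 nearest were miR-16a-5p, a miRNA that restrains the cell cycle (distance 0.22), miR-200b of the epithelial miR-200 family (0.25), miR-27a-3p (0.26), miR-194 (0.28) and miR-24-3p (0.28). A flat profile would have a distance of 0.30, and the median miRNA had 0.48, so the nearest profiles shared only part of the pattern. miR-16a-5p lay on the same side of its mean as miR-21-5p in 11 of 12 libraries, and its log2 fold change of telogen over catagen was 0.24 (SE 0.10, FDR-adjusted p = 0.0816, edgeR). The same 5 were nearest when log2(TPM + 1) was used.

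The profiles nearest to the negative of that of miR-21-5p were those of let-7c-5p (0.17), let-7e-5p (0.20), let-7g-5p (0.22), miR-99b-5p (0.23) and miR-320-3p (0.23). let-7e-5p and miR-99b-5p were lower in telogen than in catagen by log2 fold changes of -0.72 (FDR-adjusted p = 0.00194) and -0.68 (FDR-adjusted p = 0.00323, edgeR), and let-7g-5p by -0.44 (FDR-adjusted p = 0.00327). These values are after TMM normalization. With library totals they were -0.35, -0.30 and -0.08, and none of the 5 miRNAs was among the nearest to the negative when log2(TPM + 1) was used. Reads of near-identical let-7 members could be shared, so their single values are uncertain to that extent. All 12 libraries enter these distances, so they describe the profiles and are no test.

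**Figure D4:**
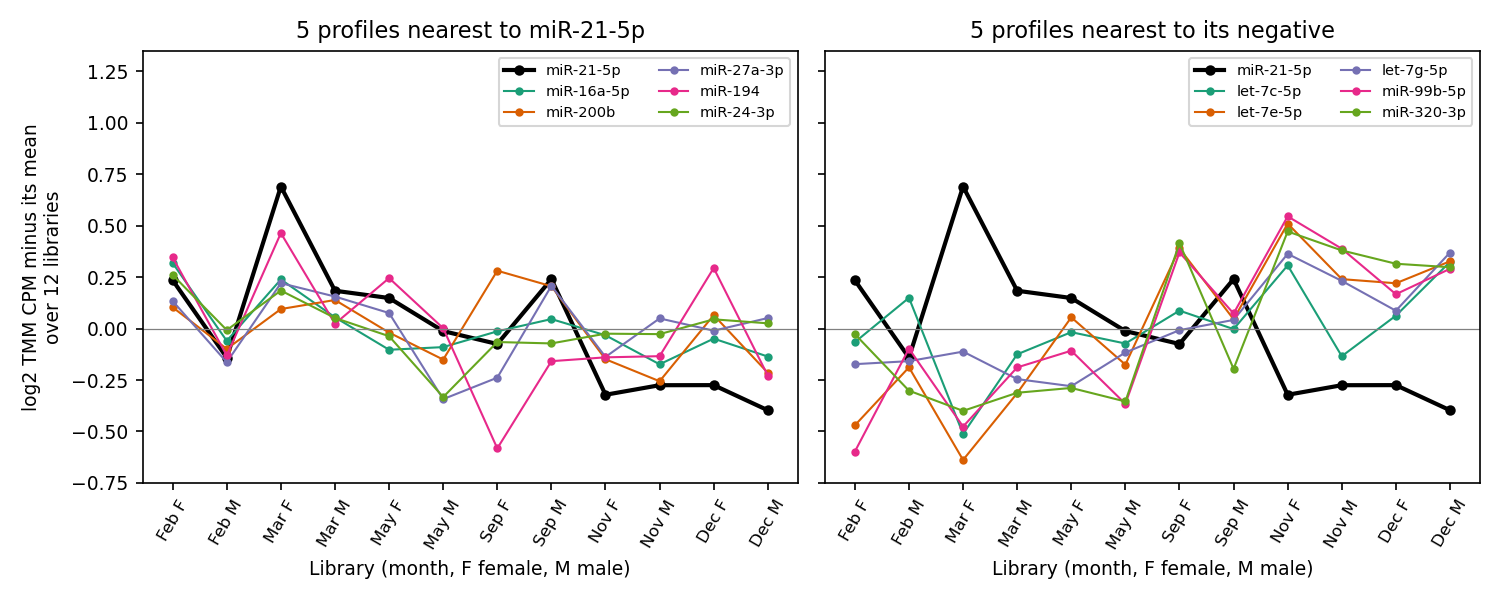
Log2 TMM CPM minus its mean over 12 libraries (y axis) by library in order of the months (x axis), for miR-21-5p in black and the 5 miRNAs with the nearest profile (left) or with the profile nearest to its negative (right). The high value of miR-21-5p in the female March library and its low values in the 4 catagen libraries are shared only in part by the nearest profiles, at distances of 0.22 to 0.28.

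miR-21 is often read together with other miRNAs of wounds and inflammation. Of 5 such miRNAs, 1 was higher in telogen than in catagen with an adjusted p under 0.05 and 1 was lower, where 14% and 21% of the tested miRNAs were. The first was miR-146a, a brake on innate immune signalling (log2 fold change 1.04, SE 0.25, FDR-adjusted p = 0.00755, edgeR), and the second miR-222-3p (-0.32, FDR-adjusted p = 0.0385), which stood at 0.04 and did not pass with library totals. miR-155-5p was at -0.38 (FDR-adjusted p = 0.0981) and miR-146b-5p at -0.75 (FDR-adjusted p = 0.0652). The median of the list was -0.32, against 0.00 over all tested miRNAs, and 0.04 against 0.35 with library totals. The list thus had members in both directions.

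Of 11 miRNAs tied to TGF-β signalling and fibrosis, 2 were higher in telogen and 1 lower, beside 14% and 21% of all tested miRNAs, with a median log2 fold change of 0.20 against 0.00. miR-29a-3p, which represses collagens, was higher (0.80, SE 0.23, FDR-adjusted p = 0.0165), as was miR-199a-3p, while miR-192-5p was lower (-0.65, SE 0.12, FDR-adjusted p = 0.00207, edgeR). With library totals 4 were higher, beside 30% of all tested miRNAs, and the lower one no longer passed, with a median of 0.55 against 0.35 over all tested miRNAs. Their summed TPM was 37851 to 51960 in telogen, 55288 to 57939 in May, 27166 to 28916 in September and 23461 to 32995 in catagen. In telogen and catagen most of this sum was the miR-199a arms, which are also in the mesenchyme list below. The mean TPM of miR-199a-3p was 17559 in telogen and 9355 in catagen, and that of miR-199a-5p 15478 and 9981. TPM is not corrected for composition.

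Markers of several cell types were measured beside miR-21-5p, since leukocytes, fibroblasts and epithelium all hold it. Over all tested miRNAs the shares higher and lower in telogen were 14% and 21% with TMM, and 30% and 6.33% with library totals. Of 9 miRNAs of mesenchyme, 3 were higher in telogen (miR-199a-3p, miR-214-3p and miR-214-5p) and 2 lower (miR-143-3p and miR-145-5p), which became 6 and 1 with library totals. Their summed TPM was 123496 to 146840 in telogen and 118318 to 148888 in catagen, so the groups overlapped. Most of this sum was miR-143-3p, with a mean TPM of 83784 in telogen and 96562 in catagen. The sum therefore says little about the members that were higher in telogen. The paper located miR-143-3p in the hair matrix by in situ hybridization. Of 7 miRNAs of epidermis, 1 was higher in telogen (miR-141) and 2 lower (miR-184 and miR-203), and 3 and 1 with library totals. Their summed TPM was 57973 to 96872 in telogen and 67973 to 94579 in catagen, and most of it was miR-203, with a mean TPM of 60283 and 68814.

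Of 5 leukocyte miRNAs, 3 were higher in telogen under TMM and under library totals, namely miR-146a, miR-223-3p (log2 fold change 1.36, SE 0.32, FDR-adjusted p = 0.00722) and miR-223-5p (0.90, SE 0.29, FDR-adjusted p = 0.0316, edgeR), while miR-150 was at -0.05 and miR-155-5p at -0.38. The miR-223 arms were rare, with a mean TPM of 33.7 and 10.97 over the 12 libraries. The median of the list was 0.90 against 0.00 over all tested miRNAs, and 1.27 against 0.35 with library totals. Its summed TPM was 1073 to 1768 in telogen, 1307 to 1418 in May, 799 to 1139 in September and 700 to 895.6 in catagen. Both erythrocyte miRNAs, miR-451-5p and miR-144-5p, were at low levels, with a summed TPM of 27.9 to 115 in telogen and 5.41 to 26.4 in catagen, and their log2 fold changes were 1.45 (FDR-adjusted p = 0.0476) and 1.56 (FDR-adjusted p = 0.0552). In May over telogen miR-223-3p (-1.64, FDR-adjusted p = 0.0388) and miR-223-5p (-1.59, FDR-adjusted p = 0.0341, edgeR) were lower after TMM normalization. There 5.33% of all tested miRNAs passed in either direction. With library totals none of the 5 leukocyte miRNAs passed in May over telogen. miR-21-5p did not pass under either scaling. No leukocyte or erythrocyte marker was at 0 in any library. The summed TPM of both lists did not overlap between telogen and catagen, but TPM is not corrected for the higher median of all tested miRNAs in telogen. The share of all miRNAs without overlap on that scale was not computed. In the leukocyte sum the largest difference was that of miR-146a, with a mean TPM of 854 in telogen and 332 in catagen. miR-155-5p stood at 318 and 326. The part of both lists in the result of miR-21-5p was not tested. The 2 endothelial and 4 tested muscle miRNAs had adjusted p from 0.0981 to 0.873 by edgeR and medians of 0.06 and 0.08, and the endothelial miR-126-5p passed with library totals.

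miR-21-3p, the passenger strand, was close to the limit of detection. Its counts were 1 and 5 in the female and male libraries of February, 8 and 8 in March, 19 and 7 in May, 11 and 6 in September, 3 and 4 in November and 9 and 5 in December. In all 12 libraries 86 counts of miR-21-3p stood against 3240343 of miR-21-5p, or 0.00265% of the counts of both arms. Among 112 precursors with both arms listed, this was the second smallest share of the minor arm, after miR-26a, and the median share was 3.33%. Every library favoured the 5p arm, with 17089 reads of miR-21-5p for each read of miR-21-3p in the female May library at the lowest and 388440 in the female February library at the highest, the latter resting on a single count.

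For 1000000 reads of miR-21-5p there were 15.04 reads of miR-21-3p in telogen (exact 95% Poisson interval 9.43 to 22.8, counting error only), 47.1 in May (30.8 to 69.1), 30.4 in September (17.7 to 48.7) and 31.5 in catagen (19.5 to 48.1). The intervals of telogen and May did not overlap, but they hold no spread between libraries. The TPM of miR-21-3p was 1.203 ± 0.76 over the telogen and 1.22 ± 0.53 over the catagen libraries (SD, n = 4 each), and 3.41 ± 1.67 over the May and 1.61 ± 0.62 over the September libraries (SD, n = 2 each). It did not exceed 5 CPM in any library and was therefore compared between the groups in a fit of all 376 miRNAs without a filter, a choice made after the data were seen. There its log2 fold change was -0.38 for telogen over catagen (SE 0.55, FDR-adjusted p = 0.607) and 1.40 for May over telogen (SE 0.58, FDR-adjusted p = 0.163, edgeR). The exact permutation test of telogen against catagen on log2 TPM gave a difference of -0.39 (p = 0.857). No change of miR-21-3p between the groups was therefore detectable at this depth.

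**Figure D5:**
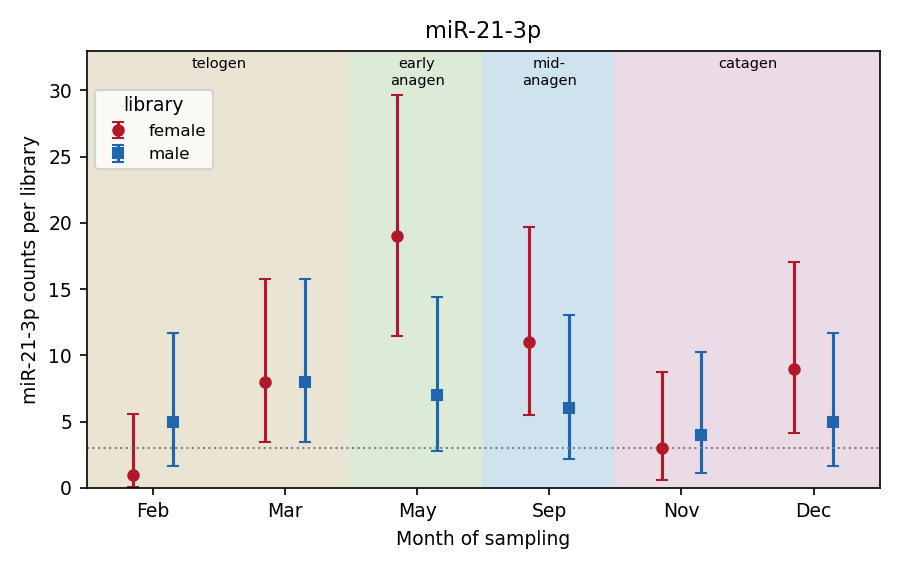
Counts of miR-21-3p per library (y axis) by month (x axis), with exact 95% Poisson intervals for counting error as bars, circles for female libraries, squares for male libraries and a dotted line at the floor of 3 counts. The counts run from 1 in the female February library to 19 in the female May library.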

How the data were processed

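Counts and TPM of both miR-21 arms were taken from the 12 libraries. The authors trimmed adapters, mapped reads to the genome build CHIR_2.0 and used miREvo and mirDeep2 for identification, with Bowtie 0.12.9 per the submitters' processing notes, and deposited raw counts and TPM. The deposited TPM differ from CPM on the library total by at most 0.00499, so they carry no correction for composition. Counts were tested in R 4.3.3 with edgeR 4.0.16 (TMM, glmQLFit, glmQLFTest, Benjamini-Hochberg) in 1 fit of 4 groups over 300 miRNAs with more than 5 CPM in at least 2 libraries. Months, sex and the sex difference of the telogen to catagen change had fits of their own. Standard errors are the log2 fold change over the square root of F. The tests were checked on simulated counts. DESeq2 1.42.0, other scalings and filters, and libraries left out were the alternatives. The members and lists were chosen with earlier results of these data known. Named miRNAs are the arms, the nearest profiles, list members with a mean TPM of at least 100 and miRNAs with a mean TPM over 5000, while the miR-214, miR-223, miR-144 and miR-451 arms, below 100, were named after their values were seen. Summed TPM and ratios use raw values. Log2 TMM CPM uses a prior count of 1, and the edgeR fold changes use that package's default. Neighbouring genes come from RefSeq ARS1.2. Lists by shared seed or by sequence element could not be made without sequences.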

Additional observations from a re-analysis of the deposited data

Results flagged for a closer look

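The level of miR-21-3p in the female December library, at a TPM of 2.0 (9 counts), was far from the other catagen libraries, at 0.87 to 1.03 (3 to 5 counts). Its gap to the nearest was 0.858 of the range of the group, above Dixon's 95% critical value for 4 libraries. Of 6 tests of this kind, on both arms in telogen and catagen, this was the 1 that passed, and chance passes about 1 in 20. The Poisson intervals of the 4 counts overlap.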

How the results depend on the processing

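Telogen over catagen kept its sign and an adjusted p under 0.05 in all 10 alternatives (0.58 to 0.998) and in all 12 fits without 1 library (0.45 to 0.70). May over catagen, not significant after TMM, was significant with library totals (0.94), totals without miR-21-5p (0.99975), a filter of 50 CPM (0.58) and only the groups compared (0.58), and ranged from 0.34 to 0.52 without 1 library. May over telogen turned from -0.20 to 0.00556 with library totals and 0.00199 with totals without miR-21-5p, and ranged from -0.32 to 0.0236 without 1 library, turning without the female March library. May over September turned from -0.02 to 0.0208 with RLE, 0.0208 with DESeq2, 0.50 with library totals, 0.53 with totals without miR-21-5p, 0.0121 with no filter, 0.12 with a filter of 50 CPM and 0.0586 with only the groups compared, and ranged from -0.17 to 0.15 without 1 library. Neither telogen over September (0.02 to 0.35) nor September over catagen (0.24 to 0.56) became significant without 1 library. An arm left with 1 library is assumed to vary like the others.

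Between months, library totals made February over November (0.72), March over September (0.71), May over November (0.98) and May over December (0.91) significant, turned February over September (0.24), May over September (0.50, adjusted p = 0.0413) and November over December (-0.0667), and DESeq2 turned February over May (0.0615), February over September (0.0823) and May over September (0.0208). The 2-fold limit was passed only for March over November (1.19) and over December (1.12), with library totals. Sex as a block changed no call. Of the lists, in scalings chosen after the data were seen, RLE brought 5 of 7 epidermal, 5 of 11 TGF-β and 2 of 2 erythrocyte miRNAs past the threshold in telogen against catagen, where TMM brought 3, 3 and 1. The cause of these changes was not tested. miR-21-3p is limited by depth, and May and September by 2 libraries each.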
